A study of Mus musculus with 16 samples.

Results

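Npc1l1, Scarb1, Abcg5, Abcg8, Abca1, Abcg1, Soat1, Soat2 and Mylip, 9 genes of intestinal cholesterol uptake, esterification and efflux, were examined in mouse ileum. They were chosen by gene symbol from the 24940 genes of the count table, so 9 of 24940 genes are described, and all 9 passed the filter on low counts in every comparison. Sequencing of mRNA covered a segment of ileum next to the cecum from 16 C57BL/6 mice, with 4 WT and 4 LKO animals of each sex. WT animals were Bcl6 fl/fl, that is, they carried the loxP-flanked Bcl6 allele without Cre, and LKO animals carried the same allele with Cre recombinase under the albumin promoter. All 16 animals thus shared the floxed allele, and Cre driven by the albumin promoter deletes Bcl6 in hepatocytes and not in the intestinal epithelium sampled here. The comparison asked how loss of BCL6, a transcriptional repressor, from the liver bears on expression in the ileum of each sex. The animals' ages were not given in the sources used here. Per the study's methods, animals were fed ad libitum or fasted for 4 hours, and which of these applied to the ileum samples was not given.

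Dietary and biliary cholesterol enters the enterocyte at the brush border through NPC1L1, is esterified by acyl-CoA:cholesterol acyltransferases for packing into chylomicrons, or is pumped back into the lumen by the ABCG5/ABCG8 heterodimer. ABCA1 passes cholesterol to apolipoprotein A-I at the basolateral side, and ABCG1 moves it to high density lipoprotein, chiefly in macrophages and other cells. The oxysterol receptors LXRα and LXRβ raise transcription of Abcg5, Abcg8, Abca1, Abcg1 and Mylip when cell sterol is high, whereas SREBP2 raises cholesterol synthesis when it is low.

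Depth was between 15.7 and 20.5 M gene counts (M, mega) for 15 libraries, and female LKO replicate 1 was deeper at 60.3 M. Enterocyte markers summed to between 20063 and 27336 counts per M (CPM), ileal markers to between 4186 and 7945 CPM, and hepatocyte markers to between 10.1 and 51.5 CPM, so the labelled tissue was present in every library. The libraries of 4 animals stood apart in B cell markers. The 8 markers summed to 124 CPM in male WT replicate 2, 74.4 CPM in female WT replicate 3, 210.0 CPM in female LKO replicate 2 and 399 CPM in female LKO replicate 3, and to between 17.9 and 30.6 CPM in the other 12 libraries. In whole tissue, fewer cells of a type and less RNA per cell cannot be told apart.

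Abcg5 and Abcg8 lie head to head on chromosome 17 of mm10. Abcg5 (NM_031884) occupies chr17:84658174-84683011 on the minus strand and Abcg8 (NM_026180) chr17:84683121-84700333 on the plus strand, which leaves 109 bases between their annotated starts. That interval is shown because both genes are read outward from it and their levels moved together across animals, as described further on. It is chr17:84683012-84683120 of GRCm38.p6 from RefSeq, plus strand, 5′ to 3′, and the capitals mark the letters TATC, which read GATA, the core of GATA factor sites, on the opposite strand.
Abcg5-Abcg8 interval: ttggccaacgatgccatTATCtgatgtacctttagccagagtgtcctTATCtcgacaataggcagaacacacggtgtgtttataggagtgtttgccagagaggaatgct
The interval held 2 such matches and had a GC content of 45.9%. GATA on either strand was present in 27.0% of all 32851 RefSeq promoter windows over the 109 bases before the start.

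Npc1l1 (NM_207242), the most abundant of these genes, occupies chr11:6211011-6230245 on the minus strand. The 150 bases before its start are chr11:6230246-6230395, printed 5′ to 3′ on the minus strand, and the capitals mark ATTAAC, the reverse complement of GTTAAT, a core of the recognition sequence of the epithelial factor HNF1.
Npc1l1 upstream: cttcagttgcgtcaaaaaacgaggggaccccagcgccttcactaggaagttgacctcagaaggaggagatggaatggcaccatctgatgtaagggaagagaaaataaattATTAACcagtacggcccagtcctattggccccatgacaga
GTTAAT on either strand was present in 3.71% of promoters over the same 150 bases. These 2 letter searches were added after the others and describe letters only.

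RefSeq promoter windows, from 250 bases before to 50 bases after the start, were found for 6 of the 9 members in 7 windows. The members without an entry were Scarb1, Abcg1 and Soat2. An LXR element was searched as a pair of hexamers, each AGGTCA or AGTTCA, set 4 bases apart on either strand with at most 1 mismatch, and a sterol element as TCAC and CCAC with any base between them on either strand. Neither was found in the 7 windows, and they were present in 0.621% and 1.24% of all windows. At shares this low, none in 7 windows was the likely outcome, so the search cannot tell whether the members lack such elements. Elements with more mismatches or outside the windows were not searched. A GC box, GGGCGG on either strand, was found in the windows of Soat1, Abca1 and Mylip and in 35.7% of all windows.

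Levels of the genes were compared with each other per length, as reads per kilobase of exon per M counts (RPKM). Npc1l1, the brush border sterol importer and the target of ezetimibe, was the highest at 161 ± 22.4 RPKM (SD, n = 16). It ranked 401 among the 15598 genes tested, and its lowest library, at 130.2 RPKM, lay above the highest library of every other member. Abcg5 followed at 74.6 ± 9.09 RPKM, ranging from 62.3 to 89.3 RPKM and not overlapping its neighbours in the order.

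**Figure D1:**
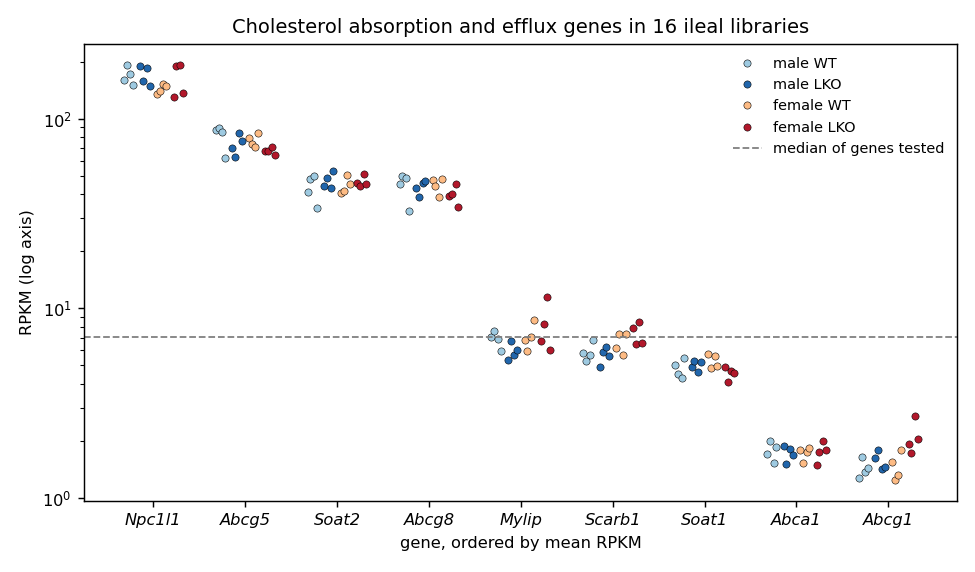
RPKM of each gene in 16 libraries on a log axis, ordered by mean, with points for single animals coloured by group and a dashed line at the median of the genes tested, 7.05 RPKM. The first 4 genes sit well above the line and Abca1 and Abcg1 lie near the bottom, in every group.

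Soat2, the acyltransferase of enterocytes and hepatocytes, averaged 45.4 ± 4.84 RPKM and Abcg8 43.1 ± 5.28 RPKM. These 2 levels did not separate, since Soat2 was the higher in 10 of 16 libraries. Below a 6.13-fold step came Mylip at 7.03 ± 1.50 RPKM, Scarb1 at 6.39 ± 0.974 RPKM and Soat1 at 4.92 ± 0.462 RPKM. Mylip encodes IDOL, a ubiquitin ligase, Scarb1 encodes the lipoprotein receptor SR-BI, and Soat1 is the acyltransferase expressed in most tissues. Mylip and Scarb1 overlapped, with Mylip higher in 11 of 16 libraries, whereas Scarb1 was above Soat1 within all 16 libraries although their ranges overlapped.

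The broadly expressed exporters were the lowest, with Abca1 at 1.75 ± 0.161 RPKM and Abcg1 at 1.64 ± 0.368 RPKM. Abca1 was higher than Abcg1 in 12 of 16 libraries. Mean levels of the top and bottom members differed 98.1-fold. The median of the genes tested was 7.05 RPKM, and 4 of the 9 members lay above it.

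Ratios between paired genes were taken within each library. Abcg5 exceeded its partner Abcg8 by 1.74 ± 0.109-fold in RPKM (SD, n = 16; range 1.57 to 1.92), and Soat2 exceeded Soat1 by 9.31 ± 1.40-fold (range 6.16 to 11.5). The Npc1l1 level was 2.18 ± 0.355 times that of Abcg5, the uptake gene over a subunit of the export pump. Within groups, the SD of log2 CPM was smallest for Soat1 at 0.123 and largest for Mylip at 0.253, beside a median of 0.158 over all genes tested.

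Uptake genes were described next by animal, in CPM scaled by trimmed mean of M-values. Npc1l1 was at 730.3, 875, 783 and 688 CPM in the 4 male WT libraries and at 866, 722, 846 and 676 CPM in male LKO. It was at 612, 637, 696 and 673 CPM in female WT and at 592, 860.3, 873 and 619.7 CPM in female LKO. Genotypes overlapped in both sexes, and the female LKO animals fell into a high and a low pair, of which the high pair were the libraries rich in B cell markers. The log2 fold change of LKO over WT was 0.02 ± 0.092 (SE) in males and 0.18 ± 0.13 in females. With the libraries above 50 CPM of B cell markers left out, an alternative added after the data had been seen, the female value was -0.07. In females this alternative compares only WT replicates 1, 2 and 4 with LKO replicates 1 and 4, here and for the members below.

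Scarb1 was at 14.5, 13.2, 14.3 and 17.1 CPM in male WT and at 12.3, 14.8, 15.7 and 14.1 CPM in male LKO. It was at 15.5, 18.4, 14.2 and 18.3 CPM in female WT and at 19.8, 16.3, 21.3 and 16.4 CPM in female LKO. Genotypes overlapped in each sex, with log2 fold changes of -0.06 ± 0.11 in males and 0.16 ± 0.11 in females, the latter at 0.07 without the libraries rich in B cell markers. The female group means lay above the male ones, with overlap between libraries.

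**Figure D2:**
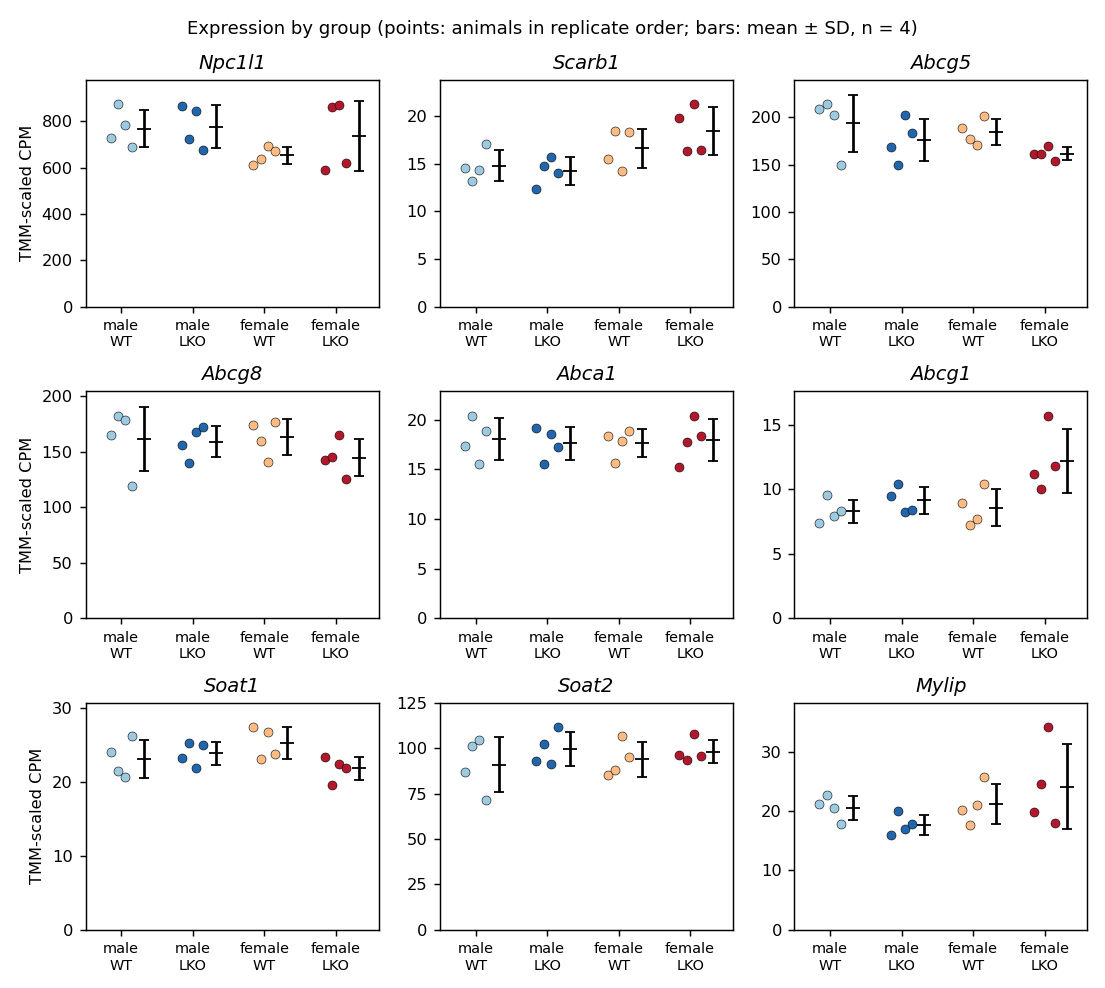
TMM-scaled CPM of the 9 genes in each group, on axes from 0, with a point for each animal and a bar for the mean ± SD of 4 animals. Groups overlap in nearly every panel, and female LKO is the highest group for Abcg1 at 12.2 ± 2.47 CPM.

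Among the exporters, Abcg5 and Abcg8 had LKO means below the WT means in both sexes, and none of these differences was called. Abcg5 was at 209, 214, 203 and 149 CPM in male WT and at 168, 149.8, 202 and 183 CPM in male LKO. It was at 189, 177, 170.2 and 201 CPM in female WT and at 162, 161, 169.9 and 154 CPM in female LKO, so the female groups met without overlapping. Abcg5 was the only member whose female groups did not overlap, 1 of 9, where 6.29% of all genes tested in females had groups without overlap. In males 0 of 9 members had groups without overlap, beside 2.90% of all genes.

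Abcg8 was at 166, 183, 179 and 119.7 CPM in male WT and at 157, 140.4, 168 and 172 CPM in male LKO. It was at 174, 160.3, 141 and 177 CPM in female WT and at 143, 145, 165 and 125 CPM in female LKO, and genotypes overlapped in both sexes. Male WT replicate 4 was the lowest male WT library for both genes. The log2 fold change of Abcg5 was -0.14 ± 0.12 in males and -0.18 ± 0.065 in females, where the unadjusted p was 0.0146 and the adjusted p 0.320 (edgeR quasi-likelihood test, Benjamini-Hochberg over all genes). For Abcg8 it was -0.02 ± 0.12 in males and -0.17 ± 0.090 in females (adjusted p = 0.489). Without the libraries rich in B cell markers, which left LKO replicates 1 and 4, the female value of Abcg8 was -0.34 (adjusted p = 0.347).

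Abca1 hardly differed in mean between the groups, at 18.0 ± 2.09 CPM in male WT, 17.6 ± 1.62 in male LKO, 17.7 ± 1.41 in female WT and 18.0 ± 2.10 in female LKO (SD, n = 4). All 16 values lay between 15.3 and 20.4 CPM. The 95% confidence interval of the LKO to WT ratio ran from 0.837 to 1.15 in males and from 0.868 to 1.19 in females.

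Abcg1 gave the widest difference between genotypes among the members. It was at 7.40, 9.52, 7.94 and 8.33 CPM in male WT and at 9.47, 10.4, 8.22 and 8.41 CPM in male LKO, which overlapped. It was at 8.96, 7.22, 7.67 and 10.4 CPM in female WT and at 11.2, 10.01, 15.7 and 11.8 CPM in female LKO. Female LKO replicates 1, 3 and 4 lay above every female WT animal, and replicate 2 fell just below female WT replicate 4. The log2 fold change was 0.14 ± 0.13 in males and 0.51 ± 0.16 in females, a 1.43-fold difference with a 95% confidence interval from 1.13 to 1.80, an unadjusted p of 0.00629 and an adjusted p of 0.291 (edgeR), so Abcg1 was not called.

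Female LKO replicate 3, the highest library for Abcg1, also had the highest B cell marker sum. Without it the female log2 fold change of Abcg1 was 0.37, and without the libraries above 50 CPM of B cell markers it was 0.38. Female LKO replicates 1 and 4, whose B cell sums were 30.6 and 29.1 CPM, held Abcg1 at 11.2 and 11.8 CPM. Macrophage markers, of interest because macrophages express Abcg1, summed to 585 ± 71.8 CPM in female WT and 632 ± 71.3 CPM in female LKO, and 0 of 10 passed the test between them. The Abca1 to Abcg1 ratio in RPKM was 0.852 ± 0.124 in female LKO, with a range from 0.737 to 1.01, and 1.19 ± 0.125 in female WT, with a range from 1.03 to 1.33. In males the ranges overlapped, from 0.848 to 1.29 in LKO and from 1.11 to 1.33 in WT. Other ratios were taken too, and the share of gene pairs whose ranges separate was not computed. Abca1 hardly differed, so the female ratio mostly restates the Abcg1 difference, which was not called.

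The acyltransferases showed small differences of opposite sign in females. Soat1 was at 24.1, 21.4, 20.6 and 26.1 CPM in male WT and at 23.3, 25.3, 21.9 and 25.0 CPM in male LKO. In female WT it was at 27.4, 23.0, 26.7 and 23.7 CPM and in female LKO at 23.3, 19.6, 22.4 and 21.8 CPM, with overlap through a single LKO animal. Its log2 fold change was 0.05 ± 0.095 in males and -0.20 ± 0.087 in females (unadjusted p = 0.0402, adjusted p = 0.400, edgeR), and -0.12 in females without the libraries rich in B cell markers.

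Soat2 averaged 91.0 ± 15.3 CPM in male WT, 99.7 ± 9.39 in male LKO, 93.9 ± 9.59 in female WT and 98.2 ± 6.51 in female LKO. Its 16 libraries lay between 71.3 and 112 CPM, the lowest being male WT replicate 4, and genotypes overlapped in each sex. The log2 fold change was 0.14 ± 0.11 in males and 0.07 ± 0.079 in females.

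Mylip was at 21.1, 22.7, 20.6 and 17.8 CPM in male WT and at 15.9, 20.0, 17.0 and 17.9 CPM in male LKO. It was at 20.2, 17.7, 21.1 and 25.8 CPM in female WT and at 19.9, 24.5, 34.2 and 18.0 CPM in female LKO. Genotypes overlapped in both sexes, and female LKO replicate 3 again gave the top value. The log2 fold change was -0.21 ± 0.10 in males (unadjusted p = 0.0567, adjusted p = 0.965, edgeR) and 0.18 ± 0.20 in females, which became -0.15 without the libraries rich in B cell markers.

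Counted together, 0 of 9 members passed an adjusted p of 0.05 for LKO against WT in males, where 0.0527% of all genes tested did so, and 0 of 9 passed in females, beside 0.0392% of all genes. At an unadjusted p below 0.05 the members were 0 of 9 in males, beside 5.29% of all genes, and 3 of 9 in females, beside 11.7%. DESeq2 also called 0 of 9 in each sex. Over both sexes with sex in the model, 0 of 9 passed the adjusted threshold, beside 0.269% of genes, and 2 of 9 had an unadjusted p below 0.05, beside 11.2%. These were Abcg1, at 0.33 ± 0.11 (unadjusted p = 0.00696, adjusted p = 0.229), and Abcg5, at -0.16 ± 0.068 (unadjusted p = 0.0260, adjusted p = 0.349).

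**Figure D3:**
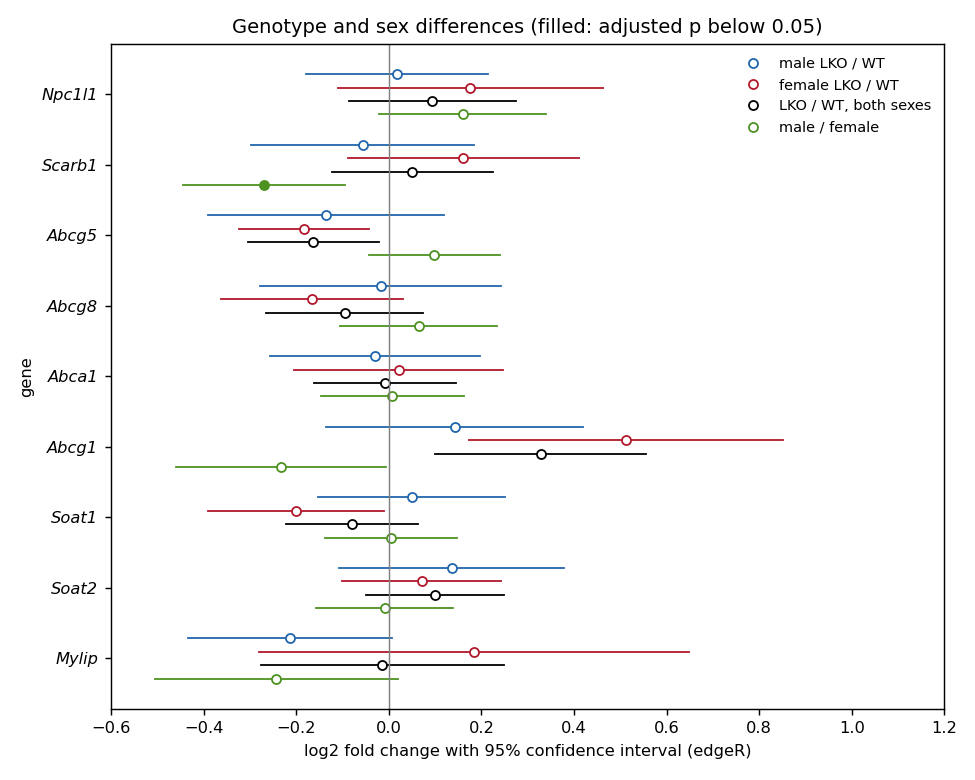
Log2 fold changes of the 9 genes with 95% confidence intervals from edgeR for LKO against WT in males, in females and over both sexes, and for males against females. The only filled point, with an adjusted p below 0.05, is Scarb1 between the sexes, and the interval farthest from 0 among the genotype comparisons is that of Abcg1 in females.

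The precision of these null calls can be read from the intervals. Over both sexes, the 95% confidence intervals of the LKO to WT ratio of the other 7 members all lay between 0.826 and 1.21. Within single sexes the intervals of these 7 reached farther, from 0.741 for Mylip in males to 1.57 for Mylip in females. The median log2 fold change of the 9 members was -0.01, beside 0.00 over all genes tested, and 4 of the 9 were positive.

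The male genotype effect was compared with the female one through an interaction term. This term passed the adjusted threshold for 0 of 9 members, beside 0% of all genes, and had an unadjusted p below 0.05 for 0 of 9, beside 5.64% of all genes. DESeq2 called 0 of 9 as well. The largest values, as male effect minus female effect on the log2 scale, were -0.40 ± 0.23 for Mylip, -0.37 ± 0.21 for Abcg1 and 0.24 ± 0.13 for Soat1. The greater Abcg1 difference in females was therefore not shown to differ from that in males, with a 95% confidence interval of the interaction from -0.81 to 0.06.

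Between the sexes, with genotype in the model, Scarb1 was lower in males at a log2 fold change of -0.27 ± 0.084 (95% confidence interval of the male to female ratio from 0.735 to 0.936, adjusted p = 0.0429, edgeR). Its group means were 14.8 ± 1.65 and 14.2 ± 1.45 CPM in male WT and LKO and 16.6 ± 2.06 and 18.4 ± 2.48 CPM in female WT and LKO. It was the only member called, 1 of 9, where 11.0% of all genes were called between the sexes, and 2 of 9 had an unadjusted p below 0.05, beside 29.3% of all genes. The other was Abcg1, lower in males at -0.23 ± 0.11 (adjusted p = 0.161).

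The Scarb1 call was a narrow one. It was kept in 5 of 16 fits that each left out 1 library and lost in 11, those without male WT replicates 1, 2 or 3, any male LKO replicate, female WT replicates 2 or 4, or female LKO replicates 1 or 3. Adjusted p in these 16 fits ranged from 0.0216 to 0.0886. It was also lost in WT animals alone (-0.17, adjusted p = 0.542), in LKO animals alone (-0.38, adjusted p = 0.104), with the number in the sample titles, whose meaning was not given, as a covariate (-0.26, adjusted p = 0.156), with the replicate block (-0.27, adjusted p = 0.0614) and without the libraries rich in B cell markers (-0.27, adjusted p = 0.0755). DESeq2 kept it, at an adjusted p of 0.0227.

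Npc1l1 was higher in males by 0.16 ± 0.085 on the log2 scale, which missed the threshold (adjusted p = 0.222). Without the 4 libraries rich in B cell markers the difference was 0.27 and the adjusted p 0.0276, in a fit that called 897 of 15780 genes. In each of these 4 libraries Npc1l1 lay above every library of its group that was not rich in B cell markers. The share of all genes for which this held was not computed. Leaving these 4 libraries out lowers the Npc1l1 mean of every group but male LKO, which held none of them. This call thus depends on that choice of libraries, made after the data had been seen. Mylip was at -0.24 ± 0.12 (adjusted p = 0.202), and the other 5 members lay between -0.01 and 0.10 with adjusted p of at least 0.343.

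Markers of other cell types were compared between the sexes as well, where 11.0% of all genes were called. Of 8 smooth muscle markers 7 were called lower in males and 0 had a positive log2 fold change, with Acta2 at -0.38 ± 0.078. Their sums were 3634 ± 159 and 3441 ± 373 CPM in male WT and LKO and 4459 ± 876 and 4674 ± 684 CPM in female WT and LKO. Between 4 and 7 of the 8 were called when 1 library was left out, and 2 without the libraries rich in B cell markers. Of 10 enterocyte markers 3 were called higher in males (Krt20, Cdh17 and Vil1) and 9 were positive. Of 10 macrophage markers 1 was called lower (C1qb), close to the share over all genes and between 0 and 3 when 1 library was left out, and 1 was positive. Of 8 Paneth cell markers 4 were called lower and 0 were positive. The part of these markers in the sex differences of Scarb1 and Npc1l1 was not tested. In males, 3 of 8 Paneth cell markers (Itln1, Lyz1 and Mmp7) were called higher in LKO, beside 0.0527% of all genes. That count was 1 without male WT replicate 1, 2 without male WT replicates 2 or 3 or male LKO replicates 1, 2 or 3, and 4 without male WT replicate 4.

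The 4 libraries rich in B cell markers were set beside the members in a comparison chosen after the values were seen. Npc1l1 in each of the 4 lay above every library of its own group that was not rich in B cell markers. The same held for 3 of the 4 for Mylip and Abcg8, for 2 for Abcg5, Abca1, Abcg1 and Soat2, for 1 for Scarb1 and for 0 for Soat1. The share of all genes for which this held was not computed, so these counts have nothing to be set against. Why these libraries were high was not tested.

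**Figure D4:**
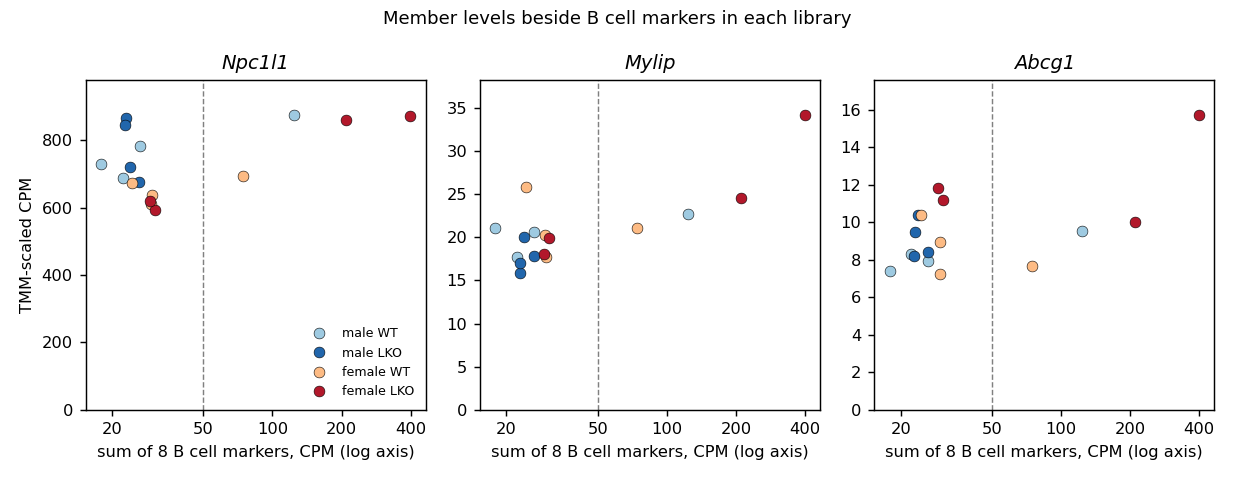
TMM-scaled CPM of Npc1l1, Mylip and Abcg1 against the summed CPM of 8 B cell markers on a log axis, with a point for each library coloured by group and a dashed line at 50 CPM. The library farthest to the right, female LKO replicate 3 at 399 CPM, is the highest for Mylip at 34.2 CPM and for Abcg1 at 15.7 CPM, while the libraries left of the line span most of the range of Npc1l1.

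Members were also compared across animals by their deviations from the group mean of log2 CPM, over 16 libraries and 36 pairs of genes. Abcg5 and Abcg8 followed each other, with Pearson's r = 0.898 (permutation within groups, two-sided, p = 6.0e-05, adjusted p = 0.00216) and Spearman's rho = 0.853 (permutation p = 0.00015, adjusted p = 0.0054). With the 2 libraries that lay farthest out in Abcg5 removed, r was 0.785. Male WT replicate 4 gave the lowest deviation of both genes.

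**Figure D5:**
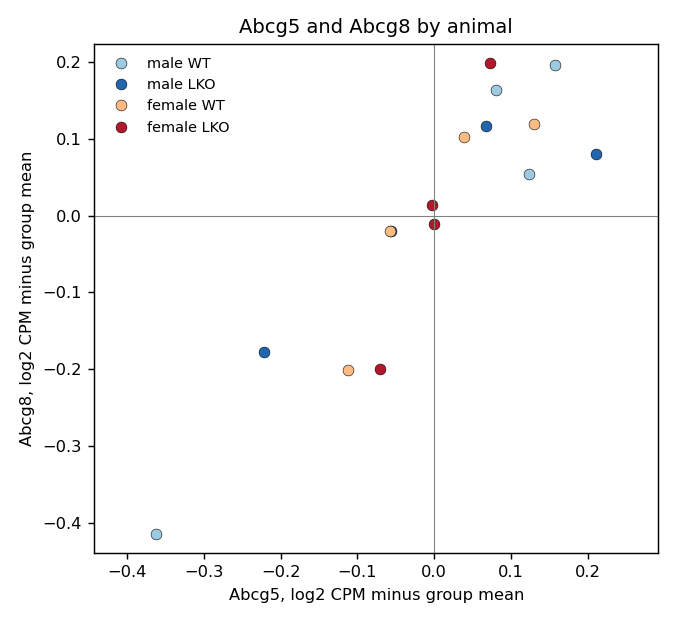
Deviation of Abcg8 against that of Abcg5, in log2 CPM minus the group mean, with a point for each of 16 animals coloured by group. Points run from lower left, male WT replicate 4, to upper right, with r = 0.898.

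No other pair passed the adjusted threshold, and 5 pairs in all had an unadjusted p below 0.05. Abcg1 and Mylip, both LXR targets, gave r = 0.64 and rho = 0.40, and r was 0.26 without 2 libraries. Among 10099 genes with a mean of at least 10 CPM, 1 gene had a higher r with Abcg5 than Abcg8 did, Slc25a51 at r = 0.902, and Vstm5 at 0.884 and Slc30a2 at 0.859 came next after Abcg8. The nearest genes to Npc1l1 were Sbk1 (r = 0.933), Itpr2 (r = 0.907) and Apoa1 (r = 0.889), and those to Abca1 were Flvcr1 (r = 0.895), Nfatc2ip (r = 0.842) and Ppfia1 (r = 0.835). These are descriptions over 16 libraries that differed in depth and in tissue make-up, such as B cell marker sums. The part of these differences in the correlations was not tested.

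The receptors and regulators of the pathway were given as background to the members. Nr1h3, which encodes LXRα, was at 37.8 ± 3.54 CPM in male WT, 37.0 ± 4.86 in male LKO, 39.1 ± 4.76 in female WT and 40.2 ± 1.87 in female LKO. Nr1h2, which encodes LXRβ, was at 98.9 ± 8.07, 103 ± 4.96, 102 ± 3.80 and 107 ± 5.56 CPM in the same order. Their log2 fold changes over both sexes were 0.00 ± 0.066 and 0.07 ± 0.043, and neither passed the test. Nr1h4, which encodes the bile acid receptor FXR, was at 0.03 ± 0.064 and Npc1, which moves cholesterol out of lysosomes, at 0.04 ± 0.076.

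Of 15 LXR receptors and other LXR targets, 0 were called higher and 1 lower in LKO over both sexes, where 0.269% of all genes were called. The gene was Scd2, a stearoyl-CoA desaturase, at -0.95 ± 0.15 (adjusted p = 0.0275, edgeR), with 796 ± 183 and 492 ± 100 CPM in male WT and LKO and 674 ± 176 and 291 ± 10.5 CPM in female WT and LKO. It was not called with the replicate block, with the title numbers in the model or without the libraries rich in B cell markers. The median log2 fold change of the 15 was 0.03. Of the 5 LXR targets among the members, Abcg1 was at 0.33, Abcg5 at -0.16, Abcg8 at -0.09, and Abca1 and Mylip at -0.01 each. Between the sexes the 15 genes gave 2 calls higher in males, Smpdl3a at 0.21 ± 0.067 and Scd2 at 0.50 ± 0.15, and 1 lower, Pltp at -0.21 ± 0.066, and with upper-quartile scaling 0 higher and 3 lower.

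Of 23 genes of the SREBP2 system, 0 were called higher and 4 lower in LKO over both sexes, where 0.269% of all genes were called. Their median log2 fold change was -0.20, beside 0.00 over all genes, and 1 of the 23 was positive. Dhcr7, which makes cholesterol from 7-dehydrocholesterol, was at -0.35 ± 0.059 (adjusted p = 0.0191), Lss, which closes the sterol ring, at -0.35 ± 0.066 (adjusted p = 0.0310), and Stard4, a cholesterol carrier, at -0.29 ± 0.055 (adjusted p = 0.0310). Srebf2 itself was at -0.16 ± 0.042 (adjusted p = 0.115) and Srebf1 at -0.17 ± 0.063 (adjusted p = 0.284), and neither passed the threshold. The 4 calls depended on the setting, with 9 under DESeq2, 2 with the replicate block, between 0 and 5 when 1 library was left out, and 0 with title numbers in the model or without the libraries rich in B cell markers. Male title numbers did not overlap between the genotypes, as given above, so the fit with title numbers cannot fully separate title order from genotype. Calls over all genes moved as well, from 42 in the main fit to 224 under DESeq2 and 24 with the replicate block. They numbered 5 to 102 when 1 library was left out, 2 with title numbers and 5 without the libraries rich in B cell markers.

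The SREBP2 list also differed between the sexes, with 15 of 23 called higher in males and 0 lower, where 11.0% of all genes were called, and a median log2 fold change of 0.30. Hsd17b7 was at 0.49 ± 0.071, Cyp51 at 0.37 ± 0.058 and Fdps at 0.33 ± 0.056, all enzymes of cholesterol synthesis. Srebf2 was at 0.11 ± 0.042 (adjusted p = 0.0894). In WT animals alone 0 of 23 were called and in LKO animals alone 3 of 23, each with 8 libraries in place of 16. Over all genes, 38 of 15229 were called in WT alone and 15 of 15250 in LKO alone. Between 14 and 16 of the 23 were called higher when 1 library was left out. Calls by sex over all genes fell from 1723 in the main fit to 326 with title numbers in the model. The 9 members, in comparison, had a median of 0.00 between the sexes.

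Genes that act on NPC1L1 trafficking numbered 10, of which 0 were called by genotype over both sexes, beside 0.269% of all genes, and 3 by sex, beside 11.0% of all genes. Lima1, which links NPC1L1 to myosin Vb, was higher in males at 0.17 ± 0.042 (adjusted p = 0.0177), Myo5b, the motor itself, at 0.18 ± 0.046 (adjusted p = 0.0187), and Flot2, a flotillin of the NPC1L1 endocytic vesicle, lower at -0.18 ± 0.055 (adjusted p = 0.0416). Of 14 genes of intracellular cholesterol transport and ester hydrolysis, 0 were called by genotype and 2 by sex, Tmem97 at 0.29 ± 0.056 and Osbp at 0.15 ± 0.040, a share near the 11.0% of all genes. The count was 1 without male LKO replicate 3 or female WT replicate 1 and 3 without female LKO replicate 2. Of 14 genes of chylomicron assembly, 0 were called by genotype and 3 by sex, beside the same 11.0% of all genes. Sar1b, the GTPase of chylomicron transport vesicles, was higher in males at 0.23 ± 0.048, as was Apob, the chylomicron scaffold, at 0.23 ± 0.074, and Fabp1, a fatty acid binding protein, was lower at -1.24 ± 0.33. When 1 library was left out, the chylomicron list gave between 1 and 3 calls higher and between 0 and 1 lower, with 0 lower without male LKO replicates 1, 3 or 4 or female WT replicate 2. The trafficking list gave 0 lower in such fits, except those without male WT replicate 3, male LKO replicate 4 or female WT replicates 3 or 4, which gave 1. With title numbers in the model, the sex calls on these 3 lists numbered 0, 1 and 0, beside 326 of all 15598 genes. B cell, hepatocyte and immediate early genes gave 0 calls by genotype over both sexes, beside 0.269% of all genes, and 0 by sex, beside 11.0%. Of the 6 hepatocyte markers, 4 were tested. The 8 B cell markers had a median log2 fold change of -1.73 between the sexes. Between 0 and 3 of them were called lower in males when 1 library was left out.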

How the data were processed

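The authors made stranded mRNA libraries, sequenced 100 bp single-end reads, used STAR 2.5.2 to align them to mm10 (1 mapping position, up to 4 mismatches) and counted reads over exons with HOMER, per the labels and methods. The strand option of the counting was not stated. The deposited table holds raw counts of reads for each gene, and every per-sample column was used. None of the 9 genes overlaps another gene in the table. RefSeq, however, holds a further Abcg8 promoter window, chr17:84676052-84676351 on the plus strand, which lies within the span of Abcg5. The part of such an overlap in the correlation of Abcg5 and Abcg8 was not tested.

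Groups came from sample titles. Counts were tested with edgeR 4.0.16 in R 4.3.3 (TMM scaling, filterByExpr, robust quasi-likelihood F-test, Benjamini-Hochberg over all genes tested, threshold 0.05). Each sex was fitted on its 8 libraries and the joint effects on 16. SE is the log2 fold change divided by the square root of F. CPM are TMM-scaled, and RPKM divide them by exonic length. Replicates were separate animals. Intervals of folds are 95% confidence intervals. Fits were tested on simulated counts. Alternatives were DESeq2 1.42.0, other scalings and filters, the newer edgeR method, a replicate block, title numbers, and leaving out libraries. Correlations used 100000 permutations within groups.

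The members and the gene lists were chosen with earlier results of these data known. Named list genes were up to 3 called genes per list by smallest p, and Nr1h3, Nr1h2, Nr1h4, Srebf2, Srebf1 and Npc1 were always named. Another gene under this rule is not reported here.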

Additional observations from a re-analysis of the deposited data

How the results depend on the processing

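Members called by genotype, in males, in females and over both sexes, and members called for the interaction numbered 0 under every alternative run. Few genes of any kind were called. With 1 library left out, they numbered 5 to 29 in males, 0 to 4 in females, 5 to 102 over both sexes and 0 to 1 for the interaction. Over both sexes 0 genes were called with sets of neighbouring title numbers. In males every LKO title number lay above every WT title number, so title order and genotype cannot be fully told apart there. Where 0 genes were called, 0 of 9 was bound to follow. Between the sexes the count of 1 fell to 0 with the replicate block, with title numbers as a covariate, and in WT or LKO animals alone, and ranged from 0 to 1 when 1 library was left out. Without the libraries rich in B cell markers, a choice made after the data had been seen, it stayed at 1, but the member was Npc1l1 (0.27) and not Scarb1 (-0.27). The Scarb1 value was -0.27 with the replicate block, -0.26 with title numbers, -0.17 in WT and -0.38 in LKO, and between -0.32 and -0.23 when 1 library was left out.

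Of 1008 alternative values of a member's log2 fold change, 906 kept their direction and side of the threshold and 85 changed sign, the largest main value among these being 0.185 in size. With title numbers in the model, Abca1 was at 0.026 and Soat1 at -0.055 in males, Abca1 at -0.062 in females, Abca1 at -0.033 and Soat1 at -0.028 between the sexes, and Soat2 at -0.013 for the interaction. Values that kept their sign could also move. In males that fit put Npc1l1 at 0.26 ± 0.13, beside 0.018 ± 0.092 in the main fit. It put Scarb1 at -0.20 ± 0.18, beside -0.057 ± 0.11, and neither was called. With sets of neighbouring title numbers, Scarb1 was at -0.021 and Mylip at 0.020 over both sexes. Between the sexes, Abca1 was at -0.028 and Soat1 at -0.032 with upper-quartile scaling, they were at -0.00096 and -0.0044 with at least 10 counts in every library, Abcg8 was at -0.015 and Soat1 at -0.13 in WT alone, and Abca1 was at -0.023 and Soat2 at 0.019 in LKO alone. Without the libraries rich in B cell markers, Abcg8 was at 0.048 and Abca1 at 0.035 in males, Npc1l1 at -0.074, Abca1 at -0.072 and Mylip at -0.15 in females, Scarb1 at -0.033 over both sexes, Soat2 at 0.0098 between the sexes, and Npc1l1 at 0.16 and Abca1 at 0.099 for the interaction.

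When 1 library was left out, values that changed sign ranged in males from -0.037 to 0.088 (Npc1l1), -0.11 to 0.022 (Scarb1), -0.14 to 0.048 (Abcg8), -0.096 to 0.035 (Abca1) and -0.0032 to 0.12 (Soat1). In females they ranged from -0.047 to 0.099 (Abca1) and -0.028 to 0.30 (Mylip), and over both sexes from -0.044 to 0.023 (Abca1) and -0.13 to 0.029 (Mylip). Between the sexes they ranged from -0.028 to 0.039 (Abca1), -0.029 to 0.035 (Soat1) and -0.043 to 0.037 (Soat2), and for the interaction from -0.060 to 0.11 (Abcg5), -0.13 to 0.014 (Abca1) and -0.037 to 0.13 (Soat2). The cause was not tested.

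Animals with the same replicate number had deviations correlated at r between -0.10 and 0.26, so the numbers were not taken to pair animals, and the replicate block changed no other member's call. The lowest count behind a member's value was 130 (Abcg1), and arms of 4 animals limit the precision.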
